A study of Mus musculus with 6 samples.

Results

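This account covers 10 genes of antigen presentation by the major histocompatibility complex (MHC), chosen by name in the deposited count table. They are 6 class II genes (H2-Aa, H2-Ab1, H2-Eb1, H2-DMa, Cd74 and Ciita) and 4 class I genes (H2-K1, H2-D1, B2m and Tap1), out of 26971 features in the table. All 10 were present, and all 10 passed the filter on low counts. The libraries came from kidney cortex of male C57BL/6 mice, taken 1 day after surgery, and polyadenylated RNA was sequenced. The 3 congested libraries, titled Cong_IRI, came from kidneys given ischaemia-reperfusion injury (IRI) together with the treatment that the labels abbreviate as IVCC and the series calls renal congestion. The 3 libraries titled CLK_IRI came from kidneys with IRI alone, so every kidney carried the ischaemic injury and no uninjured kidney was compared here. The labels do not expand CLK or IVCC, and whether each library is a separate animal is not stated, so the p-values reflect the spread between these 6 libraries and no more. The question was how congestion changes gene expression in the injured kidney.

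MHC class I molecules sit on most nucleated cells and show peptides made inside the cell to CD8 T cells. They consist of a heavy chain, encoded here by H2-K1 and H2-D1, and the invariant light chain beta-2-microglobulin, encoded by B2m, and the peptides reach them through the transporter of which Tap1 is a subunit. MHC class II molecules show peptides taken up from outside to CD4 T cells and are made mainly by dendritic cells, macrophages and B cells. Cd74 encodes the invariant chain that guards the class II groove, H2-DMa a chain of the chaperone that loads peptides, and Ciita the master transactivator of class II genes. In injured kidney both leukocytes and tubular cells are known to be able to carry class II. C57BL/6 mice have the H-2b haplotype, in which the I-E alpha chain is not made, so H2-Eb1 RNA in this strain has no partner for a surface I-E molecule.

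Of the 10 genes, 7 lie in the MHC region of chromosome 17 in GRCm38, B2m lies on chromosome 2 and Ciita on chromosome 16, and all 10 are annotated as protein-coding in GENCODE. H2-Ab1 occupies positions 34257689 to 34269419, H2-Aa 34282744 to 34287823 and H2-Eb1 34305867 to 34316674 of chromosome 17. H2-K1 occupies 33996017 to 34000347 and H2-D1 35262730 to 35267499 of the same chromosome, on either side of the class II genes.

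The promoters of H2-Aa and H2-Eb1 are shown because they carry the arrangement through which the class II transactivator is known to act, an X box followed by a Y box. Sequences are from RefSeq (GRCm38.p6), give the 180 bases before the annotated start from 5′ to 3′, and carry in capitals the X box core GCAAC and the Y box core ATTGG. The gap between the cores is 28 bases in H2-Aa and 27 bases in H2-Eb1. H2-Aa lies at chr17:34287824-34288003 on the minus strand and H2-Eb1 at chr17:34305687-34305866 on the plus strand.
H2-Aa: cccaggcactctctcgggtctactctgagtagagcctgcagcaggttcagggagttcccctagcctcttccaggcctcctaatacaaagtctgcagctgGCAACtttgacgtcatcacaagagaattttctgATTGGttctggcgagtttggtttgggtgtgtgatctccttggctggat
H2-Eb1: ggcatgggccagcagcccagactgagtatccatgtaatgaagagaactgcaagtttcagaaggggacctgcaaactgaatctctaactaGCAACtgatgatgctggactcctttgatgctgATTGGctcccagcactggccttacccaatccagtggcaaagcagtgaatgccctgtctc

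Both cores with 20 to 35 bases between them, searched on both strands, occurred in 0.524% of 32851 RefSeq promoter windows of this length. Among the other members with an entry, the windows searched of H2-DMa, H2-K1, H2-D1, B2m and Tap1 held no such pair of these letters. H2-DMa and H2-K1 had 2 entries each, of which only the first listed was searched. The class I heavy chain promoters instead share a stretch with an NF-kappaB element (GGGG, 3 bases, CCCC) and an interferon-response element (TTTC, 2 bases, TTC), in capitals here. In H2-K1 the stretch lies at chr17:34000429-34000458 on the minus strand, and in H2-D1 at chr17:35262923-35262952 on the plus strand. Counted from the RefSeq start, these are positions -111 to -82 and -171 to -142, and the GENCODE span of H2-D1 given above begins upstream of the RefSeq start and so holds the stretch.
H2-K1: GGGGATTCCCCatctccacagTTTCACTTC
H2-D1: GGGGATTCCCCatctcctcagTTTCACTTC

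These stretches of 30 bases differ by the single substitution A18T, counted from 1 at the 5′ end with the H2-K1 base first. On either strand the NF-kappaB letters were found in 0.658% and the interferon-response letters in 4.42% of the windows of 180 bases. The motifs were picked from general knowledge of these promoters with the sequences in view, and a match describes letters only. The likeness of H2-K1 and H2-D1 extends into the RNA. Their transcripts matched at 86.5% of 1576 aligned positions, and H2-K1 matched H2-Q7 at 81.9% of 1580. The treatment of reads that match several genes is not given in the sources used here. The counts of the class I heavy chain genes are therefore uncertain.

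Total counts per library were 10865860 to 14350425. The libraries of replicate 1 of both groups stood apart from the other 4, and deviations from the group means correlated at 0.724, 0.342 and 0.429 across 14274 genes between libraries numbered 1, 2 and 3. Congested replicate 3 and IRI replicate 2 correlated at 0.401, and congested replicate 2 and IRI replicate 3 at 0.249. Proximal tubule markers, among them the endocytic receptor Lrp2 and the phosphate transporter Slc34a1, were abundant in every library. Their summed level was 2455, 7679 and 7866 CPM in congested replicates 1, 2 and 3, and 2912, 6885 and 8296 CPM in the IRI replicates. It was thus lowest in replicate 1 of both groups. Of the 8 markers, 6 differed between replicate numbers at an edgeR adjusted p under 0.05, where 8.01% of all genes did. The part of this difference in the MHC levels was not tested. CPM here are counts scaled to a common library size with TMM factors.

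Per length of transcript, the class I genes B2m, H2-K1 and H2-D1 were the most abundant members, while the class I gene Tap1 was among the lowest. Averaged over all 6 libraries, B2m stood at 369.8, H2-K1 at 164.0 and H2-D1 at 122.4 CPM per kilobase. The class II genes Cd74, H2-Ab1, H2-Aa and H2-Eb1 followed at 31.7, 23.7, 18.7 and 17.3, and Tap1, H2-DMa and Ciita were lowest at 3.15, 2.56 and 0.468 CPM per kilobase. By this measure B2m exceeded H2-K1, H2-K1 exceeded H2-D1, H2-D1 exceeded Cd74, and H2-Eb1 exceeded Tap1 in all 6 libraries. Their ranges did not overlap. The ranges of Cd74, H2-Ab1, H2-Aa and H2-Eb1 overlapped from each to the next, as did those of Tap1 and H2-DMa, so the levels of those neighbours were not separated beyond the spread of the libraries. Within a library Cd74 exceeded H2-Ab1 in 6 of 6, H2-Ab1 exceeded H2-Aa in 5 of 6, H2-Aa exceeded H2-Eb1 in 5 of 6 and Tap1 exceeded H2-DMa in 4 of 6. The class I sum was 11.5, 6.06 and 6.36 times the class II sum in congested replicates 1, 2 and 3, and 9.03, 5.50 and 6.17 times in IRI replicates 1, 2 and 3, on the CPM scale without division by length. On that scale H2-K1 over H2-D1 was 1.09, 0.912 and 0.994 in the congested and 1.21, 1.01 and 0.945 in the IRI replicates. Their order therefore depended on the division by length. B2m lay below H2-K1 on that scale in congested replicate 3, at 228.1 against 245.7 CPM.

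Estimates below are edgeR log2 fold changes of congested over IRI kidney, ± standard error (SE). Neither class was separated between congested and non-congested IRI kidney. In the edgeR quasi-likelihood test 0 of the 10 members passed an adjusted p of 0.05, where 0% of all 14274 genes tested did, and 0 had an unadjusted p under 0.05, where 2% of all genes did. No gene was called by DESeq2 (354 at an unadjusted p under 0.05) or by limma-voom (275 at that level). The congested libraries lay wholly on one side of the IRI libraries for 0 of the 10 members, against 6.49% of all genes. Of the 6 class II genes, 4 had a log2 fold change below 0 and 2 above 0, with a median of -0.20, and of the 4 class I genes 3 lay below 0 and 1 above 0, with a median of -0.10. Over all genes tested the median was -0.0046 and 49.6% lay above 0. Scaled by total counts alone the class I median was 0.010 and the class II median -0.090, where the median of all genes was 0.0951. Leaving out IRI replicate 1 gave a class I median of 0.019, IRI replicate 2 gave -0.051, IRI replicate 3 gave -0.23 and congested replicate 3 gave -0.011. For class II the median was -0.016 with IRI replicate 2 left out, and it was -0.037 and -0.35 with congested replicates 1 and 2 left out in turn.

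**Figure D1:**
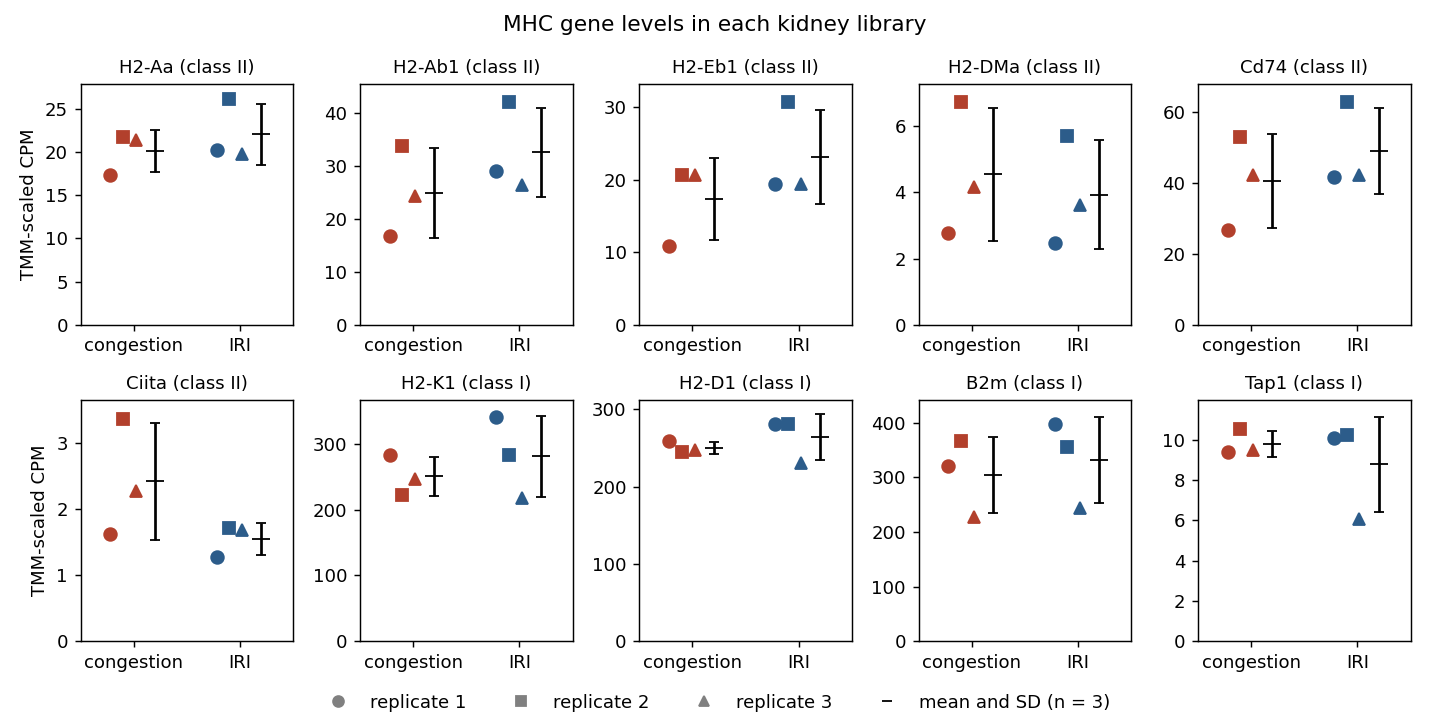
TMM-scaled CPM of the 10 MHC genes in each library, with congested IRI kidneys left of IRI kidneys in each panel, symbols for replicate numbers, and a bar for the mean and SD of 3 libraries. The groups overlap in every panel, and congested replicate 1 holds the lowest value of H2-Aa, H2-Ab1, H2-Eb1 and Cd74.

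Among the class II structural genes, H2-Aa encodes the alpha chain and H2-Ab1 the beta chain of I-A, the class II molecule of this strain. H2-Aa stood at 17.4, 21.8 and 21.4 CPM in congested replicates 1, 2 and 3, and at 20.2, 26.2 and 19.7 CPM in the IRI replicates of the same numbers. The lowest value was in congested replicate 1 and the highest in IRI replicate 2, and the others lay between 19 and 22 CPM. The estimate was -0.13 ± 0.21 (SE), with a 95% interval of -0.62 to 0.37 (edgeR adjusted p = 0.941), and it was 0.014 without IRI replicate 2.

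H2-Ab1 stood at 16.7, 33.7 and 24.2 CPM in the congested replicates and at 29.0, 42.0 and 26.4 CPM in the IRI replicates. In both groups replicate 2 was highest, and each congested library lay below the IRI library of its number. The estimate was -0.38 ± 0.31 (SE), with a 95% interval of -1.11 to 0.34 (edgeR adjusted p = 0.933). Leaving out congested replicates 1 and 2 in turn gave -0.17 and -0.66, and leaving out IRI replicate 2 gave -0.15.

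H2-Eb1, the beta chain gene of I-E, held 10.8, 20.7 and 20.6 CPM in the congested replicates, against 19.4, 30.7 and 19.4 CPM in the IRI replicates. Congested replicate 1 was low and IRI replicate 2 high, while the remaining 4 libraries lay close together. At -0.41 ± 0.32 (SE), its estimate was the lowest of the 10 members with all libraries in, with a 95% interval of -1.17 to 0.34 (edgeR adjusted p = 0.933). The estimate was -0.17 without congested replicate 1, where H2-K1 was lower at -0.26. Without IRI replicate 2 the H2-Eb1 estimate was -0.155, where that of H2-K1 was slightly lower at -0.158. The H2-Eb1 estimate was -0.56 without congested replicate 2, where H2-Ab1 was lower. An annotated antisense gene, Gm20513, overlaps H2-Eb1, and the strand setting of the counting is not given in the sources used here.

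Cd74, on chromosome 18, averaged 40.6 ± 13.2 CPM in congested and 48.9 ± 12.1 CPM in IRI kidneys (SD, n = 3 each). Its values were 26.6, 52.8 and 42.3 CPM in the congested replicates and 41.6, 62.9 and 42.3 CPM in the IRI replicates. Like the I-A and I-E genes, Cd74 was lowest in congested replicate 1 and highest in IRI replicate 2, and the libraries of replicate 3 were level. The estimate was -0.27 ± 0.30 (SE), with a 95% interval of -0.97 to 0.44 (edgeR adjusted p = 0.933). Without congested replicate 1 it was -0.041, without congested replicate 2 it was -0.50, and without IRI replicate 2 it was -0.046.

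The class II chaperone and the transactivator had fold changes above 0. H2-DMa stood at 2.78, 6.72 and 4.15 CPM in the congested replicates and at 2.46, 5.71 and 3.61 CPM in the IRI replicates, from 31 to 92 counts per library. It was lowest in replicate 1 and highest in replicate 2 of both groups, and its estimate was 0.22 ± 0.45 (SE), with a 95% interval of -0.84 to 1.27 (edgeR adjusted p = 0.949). Leaving out congested replicate 2 gave -0.18, and leaving out IRI replicates 1 and 2 in turn gave -0.025 and 0.59. Brd2 overlaps the H2-DMa locus on the other strand.

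Ciita stood at 1.61, 3.36 and 2.27 CPM in the congested replicates and at 1.27, 1.70 and 1.67 CPM in the IRI replicates, from 16 to 46 counts per library. Congested replicates 2 and 3 exceeded every IRI library, and congested replicate 1 lay among them. At 0.64 ± 0.39 (SE), with a 95% interval of -0.27 to 1.56, Ciita had the highest estimate of the 10 members (edgeR adjusted p = 0.933). Dexi overlaps the Ciita locus on the other strand. Without congested replicate 2 the estimate was 0.33. Ciita and H2-DMa had estimates above 0 and H2-Aa, H2-Ab1, H2-Eb1 and Cd74 below 0, and 0 of them passed the test.

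**Figure D2:**
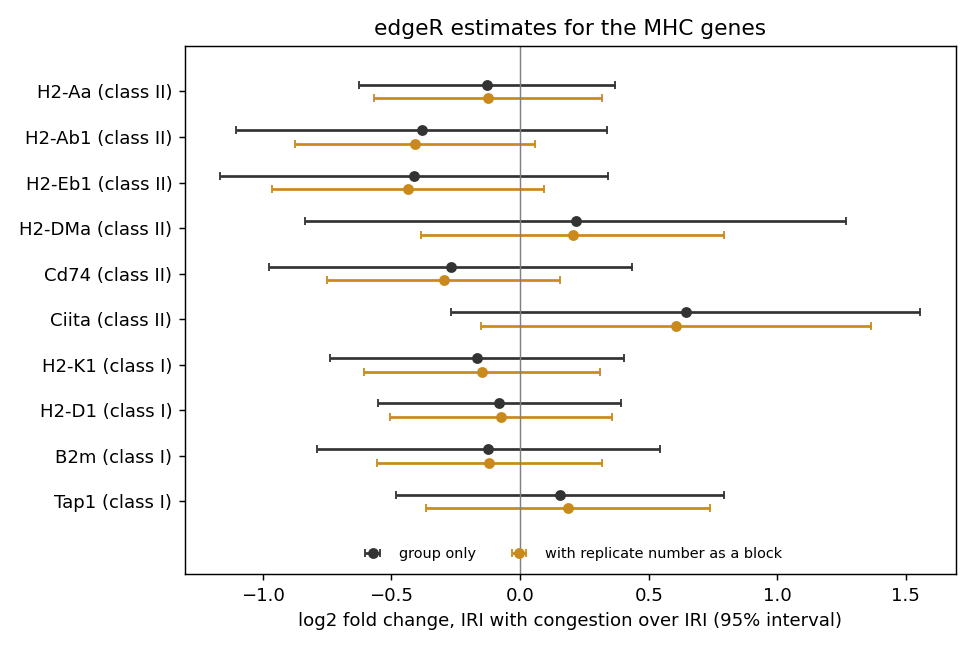
Log2 fold changes of congested over IRI kidney for the 10 MHC genes from edgeR, each with its 95% interval, from the fit with group as its only term and from the fit with the replicate number as a block. Every interval includes 0, and the estimates run from -0.41 for H2-Eb1 to 0.64 for Ciita in the fit with group only.

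The spread over the 6 libraries differed from gene to gene. The highest library held 1.57 times the lowest for H2-K1, 1.22 times for H2-D1, 1.74 times for B2m and 1.73 times for Tap1. Among class II genes the ratio was 1.51 for H2-Aa and ran from 2.36 for Cd74 to 2.83 for H2-Eb1 in the other 5.

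H2-K1 stood at 282.3, 222.8 and 245.7 CPM in the congested replicates and at 341.1, 283.3 and 217.7 CPM in the IRI replicates. IRI replicate 1 was the highest library and IRI replicate 3 the lowest, so the IRI group enclosed the congested one. The estimate was -0.17 ± 0.25 (SE), with a 95% interval of -0.74 to 0.41 (edgeR adjusted p = 0.935), and it was 0.0055 without IRI replicate 1.

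H2-D1 was the steadiest member, at 259.1, 244.3 and 247.2 CPM in the congested replicates and 281.3, 281.7 and 230.5 CPM in the IRI replicates. Here too the IRI libraries enclosed the congested ones. The estimate was -0.08 ± 0.20 (SE), with a 95% interval of -0.55 to 0.39 (edgeR adjusted p = 0.957), and scaled by total counts alone it was 0.026.

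B2m, the light chain gene, stood at 319.9, 365.4 and 228.1 CPM in the congested replicates and at 396.5, 354.8 and 243.4 CPM in the IRI replicates. Replicate 3 was the lowest library of both groups. The estimate was -0.12 ± 0.29 (SE), with a 95% interval of -0.79 to 0.54 (edgeR adjusted p = 0.953). Leaving out IRI replicate 1 gave 0.032, and leaving out congested replicate 3 gave 0.049. Patl2 overlaps the B2m locus on the other strand.

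Tap1 stood at 9.40, 10.5 and 9.48 CPM in the congested replicates, against 10.1, 10.2 and 6.08 CPM in the IRI replicates. IRI replicate 3 was low and the other 5 libraries were level. The estimate was 0.16 ± 0.27 (SE), with a 95% interval of -0.48 to 0.79 (edgeR adjusted p = 0.942), and it was -0.047 without IRI replicate 3. Tap1 overlaps Psmb9 on the other strand, a gene of the immunoproteasome.

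Within libraries of the same number, 4 of the 10 members differed in 1 direction in all 3 pairs, where 26.1% of all genes did. H2-DMa was higher in the congested library by 0.16, 0.23 and 0.19 on the log2 scale in replicates 1, 2 and 3, and Ciita by 0.31, 0.92 and 0.41. H2-Ab1 differed by -0.78, -0.32 and -0.13. Cd74 differed by -0.64, -0.25 and -6.95e-05, so its pair of replicate 3 was level. H2-Eb1 differed by -0.83 and -0.57 in replicates 1 and 2 and by 0.09 in replicate 3. Averaged over the 6 class II genes the difference was -0.33, -0.042 and 0.11 in replicates 1, 2 and 3, and over the 4 class I genes -0.20, -0.12 and 0.20. In both classes replicate 1 gave the lowest mean difference and replicate 3 the highest.

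**Figure D3:**
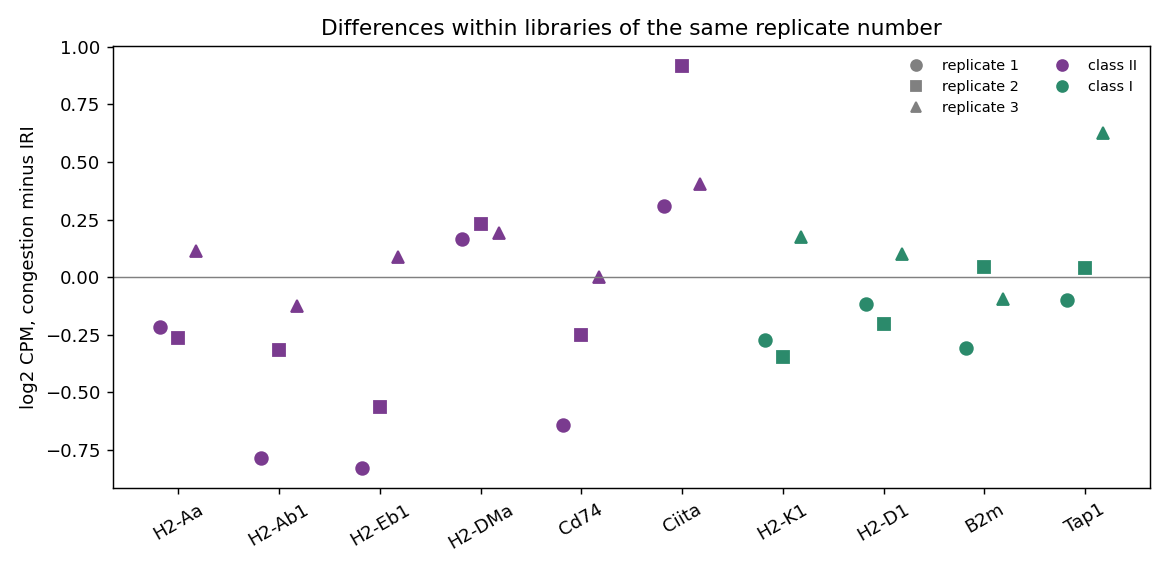
Difference in log2 CPM between the congested and the IRI library of the same replicate number for each MHC gene, with symbols for replicate numbers and colours for class. H2-DMa and Ciita lie above 0 in all 3 pairs, H2-Ab1 lies below 0 in all 3, and Cd74 is at -6.95e-05 in replicate 3.

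Differences between the replicate numbers were tested as well. In the edgeR fit with group and replicate number, 8.01% of all genes differed between the numbers at an adjusted p under 0.05, and 0 of the 10 members did. H2-DMa came nearest at an adjusted p of 0.0894, at 2.62 CPM on average in the libraries of replicate 1 and 5.05 CPM in those of replicates 2 and 3. Without IRI replicate 3 the same edgeR test called 5 of the 10 members and 5234 of all 14663 genes tested. Without congested replicate 3 it called 6 of the 10 members and 7862 of all 14682 genes tested. Without any 1 of the other 4 libraries it called 0 members.

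The library with the most leukocyte RNA was not the one with the most class II RNA. Ptprc, which encodes the pan-leukocyte antigen CD45, stood at 19.4, 9.65 and 4.93 CPM in the congested replicates and at 5.72, 4.86 and 5.82 CPM in the IRI replicates. The 6 leukocyte markers summed to 90.3, 39.2 and 27.9 CPM in the congested and to 35.01, 33.2 and 22.03 CPM in the IRI replicates. For macrophages, 12 of 12 markers passed the filter and they summed to 380.0, 124.7 and 123.6 CPM in the congested and 191.2, 119.7 and 123.3 CPM in the IRI replicates. Estimates were above 0 for 6 of 6 leukocyte and 10 of 12 macrophage markers, and 0 were called. With the replicate number as a block, 2 leukocyte and 3 macrophage markers had an edgeR unadjusted p under 0.05, where 7.06% of all genes did. Congested replicate 1 had the highest sum of both lists and the lowest class II sum. The class II sum was 76.0, 139.1 and 114.9 CPM in the congested and 113.9, 169.2 and 113.1 CPM in the IRI replicates.

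For each CPM of Ptprc the class II sum was 3.91, 14.4 and 23.3 in the congested and 19.9, 34.8 and 19.5 in the IRI replicates. For each CPM of macrophage markers it was 0.200, 1.12 and 0.930 in the congested, against 0.596, 1.41 and 0.918 in the IRI replicates. By either ratio congested replicate 1 was the lowest library and IRI replicate 2 the highest. The macrophage sum of congested replicate 1 was carried by the lysozyme gene Lyz2 at 196.8 CPM and the endotoxin co-receptor gene Cd14 at 81.0 CPM. Without both genes that library would not have the highest macrophage sum. Of the macrophage markers, Adgre1, Cd68, Lyz2, Itgam, Fcgr1 and Ly86 were highest in that library. Csf1r, C1qa, C1qb, C1qc, Cd14 and Mrc1 were each highest in another library. Without the libraries of replicate 1 of both groups the class II median log2 fold change was -0.11 and the class I median -0.03. In bulk tissue fewer cells of a type and less RNA per cell cannot be told apart, and the part of leukocyte or neutrophil content in the class II levels was not tested.

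**Figure D4:**
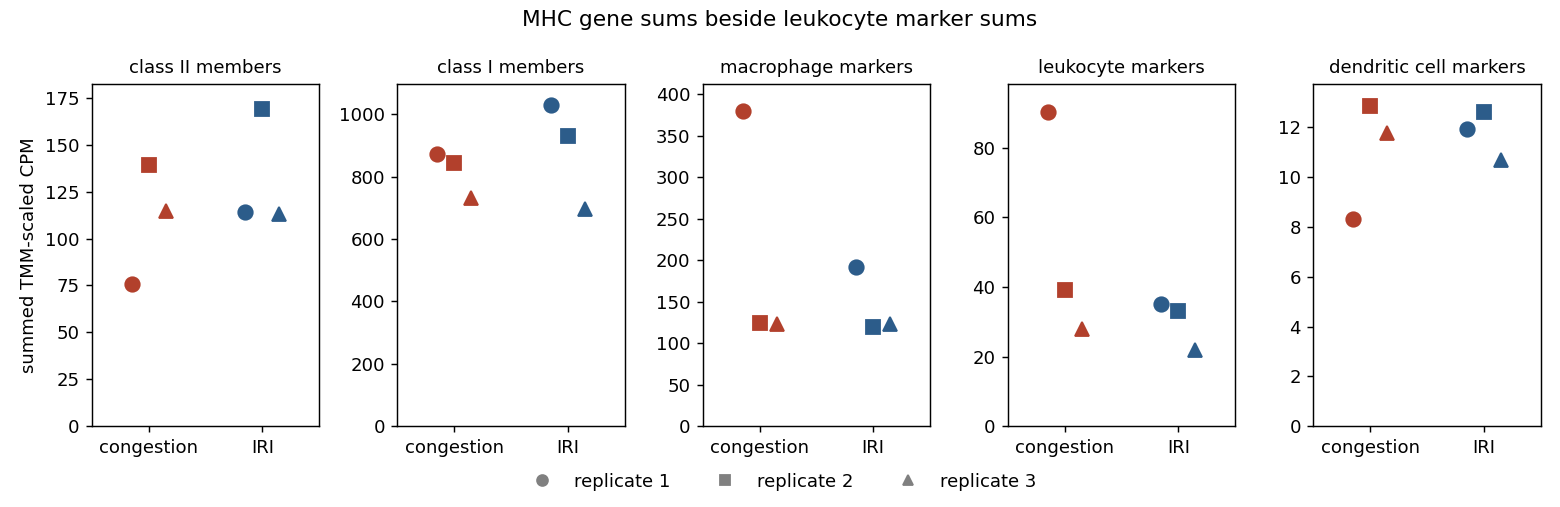
Summed TMM-scaled CPM of the 6 class II genes, the 4 class I genes and the macrophage, leukocyte and dendritic cell markers in each library, with congested IRI kidneys left of IRI kidneys. Congested replicate 1 has the highest macrophage and leukocyte sums (380.0 and 90.3 CPM) and the lowest class II and dendritic cell sums (76.0 and 8.33 CPM).

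Dendritic cell markers were scarce, with a sum of 8.33, 12.9 and 11.7 CPM in the congested and 11.9, 12.6 and 10.66 CPM in the IRI replicates. Of these 10 markers 4 passed the filter, and Xcr1, Siglech and Ccl22 were at 0 in at least 1 library. Zbtb46, a transcription factor of conventional dendritic cells, and the integrin gene Itgax were the most abundant. Zbtb46 stood at 5.11, 6.07 and 5.80 CPM in the congested and 6.83, 4.69 and 5.29 CPM in the IRI replicates. Itgax stood at 0.985, 3.14 and 2.58 CPM in the congested, against 1.91, 3.07 and 2.91 CPM in the IRI replicates. Neutrophil markers, of which 5 of 8 passed the filter and 5 had estimates above 0 with 0 called, summed to 225.7, 16.4 and 8.07 CPM in the congested and 74.9, 8.78 and 4.93 CPM in the IRI replicates, highest in replicate 1 of both groups. With the replicate number as a block, 5 of these 5 had an edgeR unadjusted p under 0.05, where 7.06% of all genes did, and S100a8, a calprotectin subunit gene named after its values were seen, was called by DESeq2 with that block (log2 fold change 1.39, adjusted p = 0.0395). T and NK cell markers summed to 0.717 to 4.02 CPM in the congested and 0.714 to 4.60 CPM in the IRI replicates, and Ifng, the classical inducer of Ciita, was at 0 in 5 of the 6 libraries with 1 count in congested replicate 3.

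Of the resident cell types, 6 of 6 endothelial markers passed the filter, with 3 estimates above 0 and 3 below and 0 called. They summed to 257.4 to 316.2 CPM in the congested and 242.8 to 349.98 CPM in the IRI replicates. Of the 6, 1 had an edgeR unadjusted p under 0.05 in the fit with group only, where 2% of all genes did. Groups did not overlap for 2 of the 6, against 6.49% of all genes. Pecam1 and the cadherin gene Cdh5 were these 2, named after their values were seen. Cdh5 stood at 29.3, 29.4 and 29.996 CPM in the congested and 12.5, 13.5 and 25.1 CPM in the IRI replicates, an estimate of 0.80 (SE 0.30, edgeR adjusted p = 0.933). Markers of nephron segments other than the proximal tubule summed to 2123, 3943 and 6718 CPM in the congested and 2139, 6955 and 6687 CPM in the IRI replicates. Of these, 9 of 9 passed the filter, with 2 estimates above 0 and 7 below and 0 called. With the replicate block 3 had an edgeR unadjusted p under 0.05, where 7.06% of all genes did. The part of these cell types in the MHC levels was not tested.

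The class II pathway beyond the members showed no gene past the test. Of 14 genes listed, 10 passed the filter, with 3 above 0, 7 below 0 and a median log2 fold change of -0.046. Those with the smallest p were Ifi30, Cd63 and H2-DMb1. Ifi30, the thiol reductase that opens disulphide bonds of antigens, stood at 49.5, 50.1 and 57.9 CPM in the congested and 83.0, 75.8 and 52.2 CPM in the IRI replicates, an estimate of -0.42 (SE 0.23, edgeR adjusted p = 0.933). Cd63, a tetraspanin of late endosomes, had an estimate of -0.47 (SE 0.39), and H2-DMb1, the partner chain of H2-DMa, one of -0.21 (SE 0.27). The cathepsin S gene Ctss, whose protease cuts the invariant chain, had one of 0.43 (SE 0.60) and was named after its values were seen. H2-DMa and H2-DMb1 encode the chains of 1 heterodimer and had estimates of opposite sign, each smaller than its standard error.

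The class I pathway beyond the members also had no gene past the test. Of 21 genes listed, 20 passed the filter, with 5 above 0, 15 below 0 and a median log2 fold change of -0.29, and 0 were called. Psme2, a subunit of the interferon-inducible proteasome activator, stood at 70.1, 67.5 and 60.4 CPM in the congested and 145.1, 124.1 and 49.6 CPM in the IRI replicates. IRI replicates 1 and 2 were high, while IRI replicate 3 was the lowest of the 6 libraries. Its estimate was -0.69 (SE 0.38) and that of its partner Psme1 was -0.48 (SE 0.28), both at an edgeR adjusted p of 0.933. Nlrc5, the class I transactivator, had an estimate of 0.72 (SE 0.41, edgeR adjusted p = 0.933). It stood at 2.60, 4.24 and 1.72 CPM in the congested and 1.91, 1.53 and 1.76 CPM in the IRI replicates. Both transactivators, Ciita for class II and Nlrc5 for class I, therefore had estimates above 0 and were highest in congested replicate 2.

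Other class I genes were singled out after their values were seen. The immunoproteasome subunit genes Psmb8, Psmb9 and Psmb10 had estimates of -0.46, -0.45 and -0.39, and SEs of 0.32, 0.35 and 0.34. The non-classical class I gene H2-T23 stood at 36.3, 48.8 and 66.0 CPM in the congested and 52.2, 79.8 and 74.9 CPM in the IRI replicates. With the replicate number as a block it was the only tested gene of the class I pathway at an unadjusted p under 0.05 (estimate -0.47 on the log2 scale, edgeR unadjusted p = 0.0364), where 7.06% of all genes were, and it did not pass the adjusted threshold.

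Regulators of MHC genes split in both directions, with 10 above 0 and 6 below 0 among 16 tested of 19 listed and a median log2 fold change of 0.11. Rfxap and Rfx5 encode subunits of the factor that binds the X box shown above. Rfxap stood at 12.002, 10.5 and 9.79 CPM in the congested and 19.9, 14.5 and 11.4 CPM in the IRI replicates, with an estimate of -0.50 (SE 0.26, edgeR adjusted p = 0.933). Rfx5 stood at 10.5, 10.6 and 8.85 CPM in the congested and 4.45, 5.62 and 9.60 CPM in the IRI replicates, with an estimate of 0.61 (SE 0.33, edgeR adjusted p = 0.933). In both genes replicate 3 had the smallest difference between the groups. Jak1, a kinase of interferon receptors, had an estimate of 0.36 (SE 0.23).

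Co-stimulatory and adhesion genes of antigen-presenting cells gave 3 above 0 and 2 below 0 among 5 tested of 8 listed. Icam1, an adhesion molecule that also binds T cells, stood at 42.4, 35.9 and 21.9 CPM in the congested, against 28.2, 23.3 and 17.005 CPM in the IRI replicates. Its estimate was 0.55 (SE 0.31, edgeR adjusted p = 0.933). With the replicate number as a block it was 0.53 (edgeR unadjusted p = 0.0201, adjusted p = 0.577), where 7.06% of all genes had an unadjusted p under 0.05. Cd86 and Cd40, the co-stimulatory ligand and receptor genes, stood near 1 CPM in most libraries and had estimates of 0.38 (SE 0.59) and -0.28 (SE 0.36).

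Genes with the profile nearest to each class were sought among 14160 tested genes on none of the lists, by the root mean square difference of deviations in log2 CPM over the 6 libraries. Nearest to the class II mean were Odc1, the first enzyme of polyamine synthesis, at 0.063, Dck at 0.076 and Cyp2j13 at 0.086, where the median over all candidates was 0.477. The class II members themselves lay 0.113 (Cd74) to 0.348 (Ciita) from their own mean. Nearest to the class I mean were Tmem120b at 0.029, and Smarcd2 and Flot2 at 0.041 each, where the median was 0.388. The class I members lay 0.105 (H2-D1) to 0.158 (B2m) from theirs. The named genes were picked from 14160 by this same distance, so their lying nearer than the members is no result about either.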

How the data were processed

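Polyadenylated RNA from mouse kidney cortex was sequenced in 6 libraries, 3 per group by the sample titles. The authors deposited raw read counts per gene, and the submitters' processing notes name STAR 2.7.10a, featureCounts, Subread and GRCm38 without the role of each. The annotation, strand setting and handling of multimapping reads in that counting were not given in the sources used here. The main test was that of edgeR 4.0.16 under R 4.3.3 (TMM factors, filterByExpr with a minimum count of 10 and a minimum total of 15, robust quasi-likelihood F test, group only), which left 14274 genes. P-values were adjusted over all of them by the Benjamini-Hochberg method, at a threshold of 0.05. Standard errors and 95% intervals come from the same fit. Per-library log2 CPM used a prior count of 2. Depth was 10865860 to 14350425 counts, with 16 to 46 counts per library for Ciita, the member with the fewest. The tests were checked on simulated counts drawn without differences between replicate numbers, so that check does not cover the replicate differences seen here.

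Both groups carry replicate numbers 1 to 3, with no statement of what a number shares. Deviations of libraries of the same number correlated at 0.724, 0.342 and 0.429, each above 0.1. The numbers were therefore taken to pair the libraries in the fits with the replicate block. Replicates 2 and 3 also correlated when crossed, at 0.249 and 0.401. The rule therefore cannot tell whether numbers 2 and 3 pair as labelled. The main test left the numbers out, because the labels do not say what a number shares. That choice bears on the intervals: the standard error of H2-Ab1 was 0.31 with group only and 0.20 with the replicate block. Every pair of replicates within a group exceeded sampling noise (chi-square over its degrees of freedom at least 18.8).

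The members and lists were chosen with earlier results of these data known. Named were all members, the 3 genes with the smallest p of each pathway list where none was called, and the 3 nearest profiles of each class. Il10 and Pdcd1lg2, on the lists, were not analysed here. The B cell marker list is not reported here. Coordinates and lengths came from GENCODE M21, using for each gene the transcript with the longest coding sequence, and alignments used Biopython 1.88. The first listed RefSeq promoter window was matched for each of H2-Aa, H2-Eb1, H2-DMa, H2-K1, H2-D1, B2m and Tap1. Alternatives were RLE, upper-quartile and total-count scaling, other filters, DESeq2 1.42.0, limma-voom (limma 3.58.1), the replicate block and each library left out. Leaving out replicate 1 of both groups was chosen after seeing the data.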

Additional observations from a re-analysis of the deposited data

How the results depend on the processing

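No alternative called any member between the groups. Of the 90 member estimates under the other settings 89 kept their sign, and H2-D1 turned to 0.026 with total counts alone. With the replicate block edgeR again called 0 genes, DESeq2 with the replicate block called 10 genes, S100a8 of the neutrophil markers among them and none of them a member, and the block changed no other call. The blocked edgeR log2 fold changes were -0.12 for H2-Aa, -0.41 for H2-Ab1, -0.44 for H2-Eb1, -0.30 for Cd74, 0.21 for H2-DMa, 0.61 for Ciita, -0.15 for H2-K1, -0.07 for H2-D1, -0.12 for B2m and 0.19 for Tap1, and the class medians -0.21 and -0.10. With 1 library left out, values ran from -0.20 to 0.014 for H2-Aa, -0.66 to -0.15 for H2-Ab1, -0.56 to -0.16 for H2-Eb1, -0.50 to -0.041 for Cd74, -0.18 to 0.59 for H2-DMa, 0.33 to 0.86 for Ciita, -0.32 to 0.0055 for H2-K1, -0.30 to 0.049 for B2m and -0.047 to 0.28 for Tap1, and 0 genes were called throughout. The count of genes differing between replicate numbers was 1144, against 3231 with no filter on low counts and 854 to 7862 with 1 library left out, and the cause was not tested. Ciita and H2-DMa had the widest intervals and the fewest counts of the members; the standard error of H2-DMa was 0.45 with group only and 0.26 with the replicate block, and the part of depth was not tested.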
